A study of Drosophila melanogaster with 32 samples.

Results

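A set of 947 regions was listed as open chromatin in testes of 2 meiotic arrest mutants of Drosophila melanogaster, aly and topi, and in none of the other 4 conditions of the same study. Open chromatin was measured by ATAC-seq, in which a transposase cuts accessible DNA, and was given as 1 list of peaks per condition. A region was taken from the 29559 peaks of the aly list when it overlapped a topi peak by 1 bp or more and overlapped no peak of the bam, heat shock control, 48h or 72h lists. The 947 regions were 3.2% of the aly peaks and 3.75% of the 25223 aly peaks that overlapped a topi peak. The regions were thus chosen by the authors' peak calls in all 6 lists, so their presence and absence in the lists is a description, and no test was made on it. A region missing from a list is one in which no peak was called there, which is not the same as closed chromatin.

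All samples were whole testes. Males were under 2 days old. Testes of the bam group were from bam -/- flies grown at 22 C for 12 days and are labelled as enriched for spermatogonia. Flies of the 48h and 72h groups were bam -/- too and carried Bam under a heat shock promoter; they were grown at 22 C for 9 days, shocked at 37 C for 30 min and kept at 25 C for 48 h or 72 h. Young spermatocytes are the labelled stage at 48h and mature ones at 72h. The heat shock control is labelled bam -/-, was shocked in the same way and was taken at 48 h. The aly -/- and topi -/- flies grew at 25 C for 10 days with no shock and are labelled as mature spermatocyte stage. All 4 conditions outside the 2 mutants therefore carried bam -/-, while the labels of the mutants name no bam allele. Genotype, growth temperature and growth time cannot be told apart in any comparison of the 2 mutants with the other 4 conditions. In comparisons with 48h and 72h, the heat shock and the heat shock Bam construct cannot be told apart from these either. The same holds for the shock in comparisons with the heat shock control. A heat shock promoter is active in many cell types and does not limit Bam to germ cells.

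aly and topi encode subunits of tMAC, the testis meiotic arrest complex, which is related to the dREAM complex of other cells. tMAC switches on the genes that spermatocytes use for the meiotic divisions and for building sperm. In mutants of its subunits the germ cells stop as mature primary spermatocytes. Bam is the factor that ends the proliferation of spermatogonia, and bam mutant testes fill with spermatogonia.

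RNA-seq was made on 2 libraries each of bam, 48h, 72h and aly, with 20064489 to 28984275 counts per library. No RNA-seq of topi was analysed here. The libraries of a group were close to each other: 7.12% to 7.45% of genes differed at a chi-square p of 0.05, and the common coefficient of variation of edgeR was 2.11%. The labels do not say that replicates came from separate crosses, so p-values measure the spread between these libraries, which may be technical. The aly transcript itself was still counted in aly mutants, at 72.0 and 69.7 CPM (read counts scaled to a common library size by edgeR) against 98.0 and 96.5 at 72h, a difference below 2-fold. bam RNA was at 94.9 and 98.5 CPM in bam mutants, 29.4 in both 48h libraries, 13.7 and 12.1 at 72h and 95.8 and 97.4 in aly mutants, so the bam transcript was counted in all groups. topi RNA was at 1141 and 1151 CPM in aly mutants, above the 165.3 and 168.3 at 72h, the 161.4 and 159.6 at 48h and the 3.67 and 3.91 in bam. The 12 spermatid differentiation markers summed to 12080 and 12140 CPM at 72h and to 1688 and 1686 CPM in aly mutants. The 15 markers of spermatocytes and meiotic division included topi. They summed to 3224 and 3259 CPM at 72h and to 5879 and 5876 CPM in aly mutants. Of these 15, 9 were higher and 3 lower in aly than at 72h, by 2-fold or more at an adjusted p below 0.05 in edgeR. The 3 were CycB, bol and twe, at log2 fold changes of −6.09, −3.39 and −2.31. The 10 tested accessory gland and ejaculatory tract markers summed to 2281 and 2243 CPM at 72h and 565.8 and 562.9 CPM at 48h. In bam the sums were 98.7 and 95.1 CPM and in aly mutants 92.3 and 91.5 CPM. All 10 were lower in aly than at 72h, and the part of such tissue in the comparisons below was not tested. In whole testes, fewer cells of a type and less RNA per cell cannot be told apart.

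The regions were weak peaks. Their fold enrichment over the local background at the summit, as the authors' peak caller gave it, had a median of 2.25 in the aly list, with quartiles of 2.04 and 2.54 and a range of 1.47 to 7.47. All aly peaks had a median of 3.13, and aly peaks in all 6 lists one of 4.01. The median −log10 q of the regions was 6.22 in aly, against 17.5 for all aly peaks. In the topi list the same regions had a median fold enrichment of 2.1, a range of 1.397 to 11.8 and a median −log10 q of 7.79. The aly list held 80 of the regions at a fold enrichment of 3 or more and the topi list 41, and 300 of the 947 were higher in topi than in aly. The lowest fold enrichment listed in any of the 6 conditions lay between 1.28 and 1.37, and the lowest −log10 q of the aly list was 1.53. The median fold enrichment of the regions in aly thus lay above this floor and below the lower quartile of all aly peaks, 2.39.

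**Figure D1:**
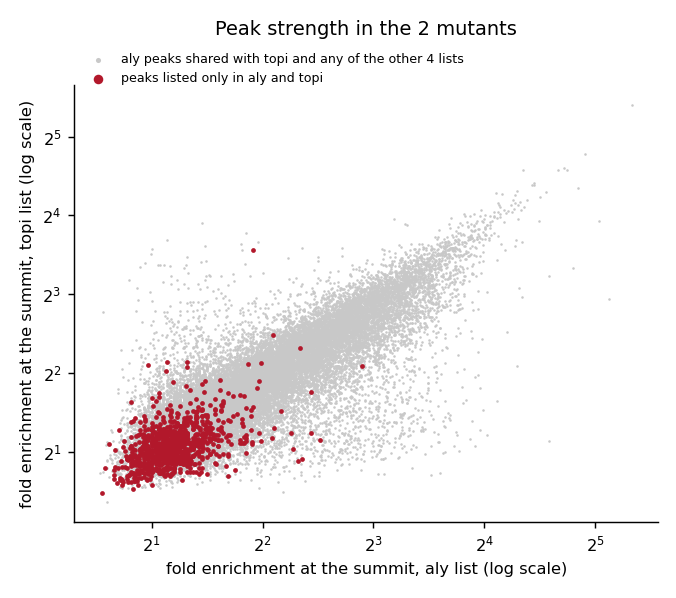
Fold enrichment at the summit in the aly list (horizontal) and in the topi list (vertical), both on log scales, for the 947 regions listed only in aly and topi (red) and the 24276 aly peaks shared with topi and any of the other 4 lists (grey). The red points gather at the weak end of the cloud, around the medians of 2.25 and 2.1.

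The rule asked for overlap of narrow peaks, which itself favours summits of the 2 mutants that lie close together. The distance between the aly and the topi summit had a median of 25 bp, and 638 regions (67.4%) had both summits within 50 bp. The overlap with the topi peak had a median of 122 bp, and the width of the aly peak a median of 148 bp (100 to 741), against 217 bp for all aly peaks. At the edge of the rule, 3 regions overlapped a topi peak by only 10 bp, on 2R (23272738-23272910) and on 3R (23518677-23518903 and 31201708-31201807). The nearest peak of the other 4 lists lay a median of 912 bp away, and for 140 regions within 200 bp. Just outside the rule, the peak at 3L 10876938-10877064 overlapped the other lists by 2 bp, and that at 3R 30031963-30032164 by 8 bp. With these included, 31 aly peaks shared with topi were left out at less than 50 bp of overlap, summed over the other 4 lists.

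Most of the regions lay inside genes and away from gene ends. A gene end is either end of a gene in the RefSeq annotation of Release 6, which was used without strand or exons, so starts cannot be told from stops and introns from exons. Of the 947 regions, 668 (70.5%) had their summit inside a gene and more than 250 bp from any gene end, 186 (19.6%) lay between genes, and 93 (9.82%) within 250 bp of a gene end. Of all aly peaks, 31.0% lay within 250 bp of a gene end, and of the aly peaks in all 6 lists 37.7%. The median distance to the nearest gene end was 2673 bp for the regions and 865 bp for all aly peaks. Peaks shared by aly, topi and 72h and missing in bam and the heat shock control had 13.9% at gene ends and 70.5% inside genes, and the 1777 peaks listed in aly alone had 13.6% and 66.5%. These other condition-limited classes thus lay close to the 947 regions in this respect.

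**Figure D2:**
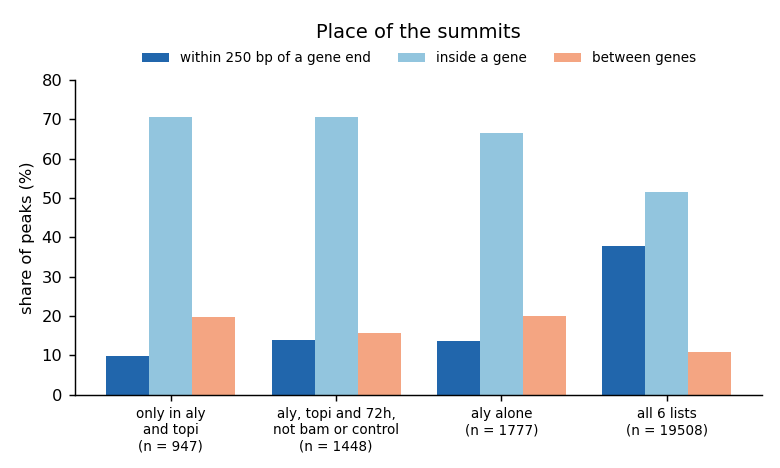
Share of peaks (%, vertical axis) whose summit lay within 250 bp of a gene end, inside a gene or between genes, for the 947 regions and 3 other classes of aly peaks. Gene ends hold 9.82% of the regions and 37.7% of the peaks found in all 6 lists.

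The regions were spread over the genome. Chromosome arm 3R held 254, 3L 216, 2R 203, 2L 153, X 115, the fourth chromosome 5 and Y 1. The X share was 12.1%, with 14.5% of all aly peaks on X, and the 2L share was 16.2% against 18.4%. With a gap of at most 10000 bp, 728 regions stood alone and 219 fell into 100 runs of 2 or more, 13 of them with 3 or more. The longest run was 6 regions on 2R between 19572441 and 19589710, all inside sm, and a run of 4 lay in the same gene at 19531841-19557849. Other runs of 3 lay in vn, Sema1a, tinc, RYa-R and dnc, and at the ionotropic receptor genes Ir56b, Ir56c and Ir56d. Of windows of 250000 bp, 387 held a region and 132 held just 1. The window 2R 19500000-19750000 held 15, where the aly list had 101 peaks, topi 86, 72h 72, 48h 68, the heat shock control 43 and bam 38.

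Nucleosome positions, deposited by the authors as 1 map per condition, are another readout of the same libraries, so they are not independent of the peak rule. A mapped position within 250 bp of the summit was found for 91.3% of the regions in aly and 97.3% in topi. In the other conditions the share was 45.0% at 48h, 37.2% at 72h, 35.9% in bam and 25.0% in the heat shock control. For aly peaks in all 6 lists it was 98.3% to 99.6% in every map. Where the regions did have a position, its reads were few: the median was 11 in bam, 12 in the heat shock control, 22 at 48h, 16 at 72h, 15 in aly and 25 in topi. The median occupancy, a fraction from 0 to 1, was 0.792 in aly and 0.788 in topi, and 0.819 to 0.854 in the other 4 maps. Peaks shared by aly, topi and 72h and missing in bam and the heat shock control had positions at 90.3% in the 48h map and 97.2% in the 72h map, and at 52.0% in bam and 40.3% in the heat shock control, where no peak was listed. Peaks in aly alone had positions at 24.9% in bam, 22.2% in the heat shock control, 38.1% at 48h, 30.3% at 72h and 40.7% in topi. Low shares in maps of conditions without a peak were thus seen in these classes too. The maps come from the same ATAC-seq reads as the peaks, without replicates, and the depth of those libraries is unknown. A low share where no peak was listed is thus no separate evidence, here or at the single regions below. These shares were not tested.

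The strongest region in aly was at 2R 2771083-2771338, inside CG41378, with a fold enrichment of 7.47 in aly and 4.24 in topi and summits 2 bp apart. It had nucleosome positions in aly (67 reads) and topi (61 reads) and in none of the other 4 maps. CG41378 RNA was nevertheless nearly level, at 27.2 and 26.5 CPM at 72h and 23.6 and 24.2 CPM in aly, a difference below 2-fold. The next, at 2R 19120599-19121188, lay in 5-HT1A, a serotonin receptor gene, at 5.71 in aly and 2.22 in topi. 5-HT1A held 3 regions, and its RNA rose from 0.98 and 0.70 CPM at 72h to 4.22 and 3.88 CPM in aly (log2 fold change 2.27 ± 0.24 SE, adjusted p = 3.5e-10). A region at 3R 3169537-3169684 in Pzl, a gene of the Piezo family of mechanically gated channels, had 5.42 in aly and 3.38 in topi. Pzl RNA fell, from 38.8 and 39.8 CPM at 72h to 6.13 and 7.11 CPM in aly. RNA of the genes at these 3 regions thus rose in 1, fell in 1 and stayed within 2-fold in 1.

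Between Rpn2, which encodes a subunit of the proteasome cap, and rdog, a pair of regions at 3R 29157349-29157496 and 29157718-29157869 reached 3.97 and 5.07 in aly and 4.36 and 4.98 in topi. The second of them lay 93 bp from a 48h peak and had nucleosome positions in all 6 maps, with 10 reads in bam and 96 in topi. Rpn2 was at 299.0 and 287.8 CPM at 72h and at 490.1 and 481.2 CPM in aly, a log2 difference of 0.73. The region in Fili, a leucine-rich repeat gene, at 2R 21919264-21919405 had 4.84 in aly and 2.05 in topi, and Fili RNA fell from 14.4 and 16.1 CPM at 72h to 2.78 and 2.24 CPM in aly. At CG1529 a region at X 21031899-21032053, 33 bp from a gene end, had 4.27 in aly and 5.57 in topi. CG1529 RNA rose from 11.2 and 9.55 CPM to 43.7 and 41.2 CPM (log2 fold change 2.04 ± 0.07 SE, adjusted p = 5.5e-22). The only region on Y, at 2008407-2008629, had 5.13 in aly and 1.87 in topi, with no gene nearby. The highest topi value, 11.8, belonged to a region at X 114081-114387 with 3.78 in aly, but there the 2 summits lay 1928 bp apart, so the topi value belongs to another summit than the aly value.

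For RNA, a gene was linked to a region when the summit lay in the gene or within 1000 bp of either of its ends. This linked 792 regions to 840 genes and left 155 without a gene. Counts of 800 of the genes were at hand, and 716 passed the filter on low counts. Linked genes were long, with a median of 12180.5 bp against 2105 bp over all tested genes. A gene was called higher or lower at an adjusted p below 0.05 and a change of 2-fold or more. The rule on peaks did not use RNA, but the aly group is shared by the 3 comparisons below.

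Against 72h, 201 of the 716 linked genes (28.1%) were higher in aly, beside 22.1% of all 13495 genes tested, and 125 (17.5%) were lower, beside 33.6%. Against 48h, 145 (20.3%) were higher, beside 15.7%, and 102 (14.2%) lower, beside 24.5%. Against bam, 183 (25.6%) were higher, beside 29.2%, and 189 (26.4%) lower, beside 25.3%. The median log2 fold change of the linked genes was 0.39 against 72h, 0.13 against 48h and −0.26 against bam, beside −0.07, −0.04 and 0.01 over all tested genes. With scaling to library size alone the median of all genes against 72h was 0.15 in place of −0.07, and 46.7% in place of 39.7% of all called genes were higher. Of the linked genes, 258 were then higher and 115 lower, in place of 201 and 125. The 9882 genes linked to aly peaks shared with topi and any other list had 24.9% higher and 22.3% lower against 72h and a median of 0.20. Genes linked to peaks in aly alone had 30.7% higher and 18.5% lower. Gene length moved with these shares: among all tested genes of 20000 bp or more, 24.8% were higher and 17% lower, and among the 270 linked genes of that length 27.4% and 14.4%. Among genes of 5000 to 20000 bp the 218 linked genes had 26.1% higher and 12.4% lower, beside 25.4% and 17.7% of all. Among genes below 5000 bp the linked genes had 30.7% higher and 25.9% lower, beside 21.1% and 39.2% of all. These gaps were not tested.

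**Figure D3:**
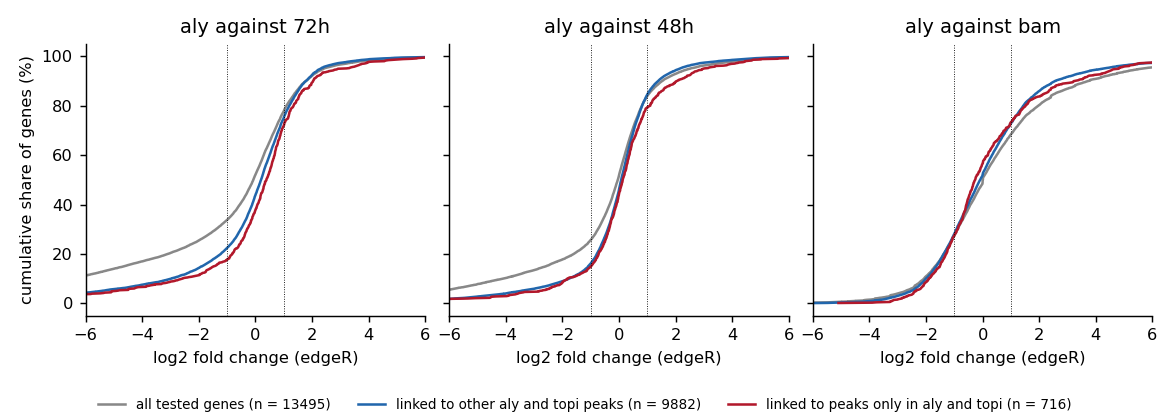
Cumulative share of genes (%, vertical axis) by log2 fold change in edgeR of aly against 72h, 48h and bam, for all 13495 tested genes (grey), the 9882 genes linked to other peaks shared by aly and topi (blue) and the 716 genes linked to the 947 regions (red). Dotted lines mark 2-fold, and in the 72h panel the red and blue lines run below the grey one on the side of falls.

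By the place of the region, a gene with regions of more than 1 place being counted in each, the shares can be set beside the 28.1% higher and 17.5% lower of all linked genes and the 22.1% and 33.6% of all tested genes. Of 593 tested genes with a region inside a gene, 168 (28.3%) were higher and 94 (15.9%) lower in aly than at 72h. Of 106 with a region at a gene end, 32 (30.2%) were higher and 20 (18.9%) lower. Of only 26 genes with a region outside any gene, more than 250 bp away, 3 were higher and 13 lower. These differences were not tested. Where a gene held 3 or more regions, 11 of 25 were higher and 3 lower. With 1 region, 27.8% of 616 genes were higher and 17.9% lower, and with 2 regions 25.3% and 16.0% of 75. The 25 genes were all 31152 bp or longer, and of all tested genes of 20000 bp or more 24.8% were higher and 17% lower. No trend with the number of regions was tested.

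A set of 81 linked genes (11.3%) was higher in aly than in each of bam, 48h and 72h, beside 8.86% of all tested genes, 8.45% of the genes linked to other peaks of both mutants and 13.6% of those linked to peaks in aly alone. Below 5000 bp the share was 12.3% of linked genes beside 8.70% of all tested genes. From 5000 to 20000 bp it was 9.17% beside 8.91%, and at 20000 bp or more 12.2% beside 10.7%. These differences were not tested. The mean level of the 81 genes in aly ran from 0.48 to 610.9 CPM with a median of 6.67 CPM, and 36 of them were below 1 CPM in all 3 other groups. The 12 with the largest smallest change were CG14304, Ir56d, CCHa1, CG17193, lncRNA:CR45232, Acsx1R, CG30049, CG30047, TrpA1, CG15923, CG34251 and bma.

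CCHa1 encodes the neuropeptide CCHamide-1. Its RNA was at 0 and 0.09 CPM in bam, 0.93 and 1.25 CPM at 48h, 1.39 and 1.498 CPM at 72h and 54.4 and 53.6 CPM in aly. Both aly libraries lay far above all 6 others, and the log2 fold change against 72h was 5.22 ± 0.11 SE (adjusted p = 6.4e-28). Its region, at 3R 14095729-14095985, was modest, with a fold enrichment of 1.67 in aly and 2.08 in topi, and lay 123 bp from a 48h peak. TrpA1 encodes a channel that senses warmth and irritants. It was at 0.24 and 0.04 CPM in bam, 0.79 and 0.81 CPM at 48h, 0.87 and 1.22 CPM at 72h and 25.5 and 26.4 CPM in aly (log2 fold change against 72h 4.62 ± 0.14 SE, adjusted p = 8.7e-24). Here the nearest peak of the other lists was 6909 bp away, and the region at 3L 8898582-8898787 had nucleosome positions in the 2 mutants only.

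Ir56d encodes a chemosensory receptor of the ionotropic family. No counts were seen in bam, and the gene stood at 0.38 and 0.28 CPM at 48h, 0.36 and 0.19 CPM at 72h and 18.0 and 15.5 CPM in aly. Its region at 2R 19513595-19513746 lay 91 bp from a gene end. The neighbouring Ir56c was also higher in aly than in all 3 groups, at a mean of 1.19 CPM against 0.12 CPM at 72h. CG17193 rose from 0.05 and 0.14 CPM at 72h to 14.3 and 14.1 CPM in aly. CG14304 rose from 0.15 and 0.23 CPM at 72h to 20.9 and 22.8 CPM, and its region at 3R 18614476-18614645 lies also inside qin, a piRNA pathway gene whose RNA was 57.9 CPM at 72h and 59.5 CPM in aly. A region at 2R 12355769-12356306, with 3.62 in aly and 1.98 in topi, was linked to both CG30047 and CG30049. CG30047 was at 25.8 and 26.9 CPM in aly against 0.67 and 0.47 CPM at 72h, and CG30049 at 11.3 and 12.1 CPM against 0.05 and 0.28 CPM. The strand setting of the counting is not given, so reads of nested or overlapping genes such as qin and CG14304 may not be separable.

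**Figure D4:**
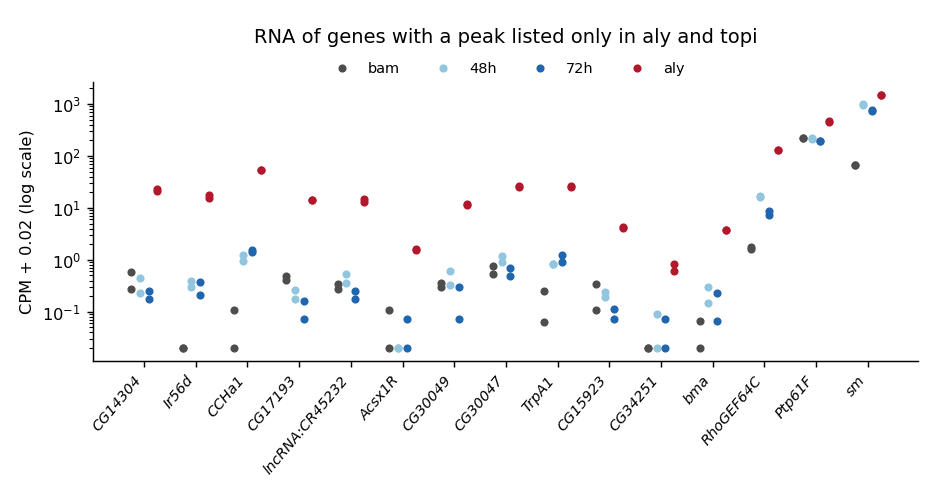
RNA level of 15 linked genes in each library, as CPM + 0.02 on a log axis, for bam, 48h, 72h and aly (2 points each). Both aly points lie above all others in each gene; for sm the 48h libraries come closest.

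Of the 840 linked genes 729 held 1 region, 86 held 2 and 25 held 3 or more. RhoGEF64C held 6 on 3L between 4702325 and 4772317, at fold enrichments of 2.05 to 3.62 in aly and 1.87 to 3.03 in topi. The nearest peak of another list was 2258 bp or more from each of them. All 6 had nucleosome positions in aly and in topi, 2 in bam, 1 at 72h and none at 48h or in the heat shock control. RhoGEF64C RNA was at 1.74 and 1.59 CPM in bam, 17.03 and 16.4 CPM at 48h, 8.73 and 7.39 CPM at 72h and 128.0 and 128.6 CPM in aly. The aly libraries were above all others, by a log2 fold change of 4.0 ± 0.06 SE against 72h (adjusted p = 2.7e-32) and 2.94 ± 0.05 SE against 48h (adjusted p = 6.1e-31). The gene's whole span, 103471 bp, held 17 peaks in aly and 32 in topi, but also 22 at 48h and 14 at 72h.

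The gene sm, which encodes an RNA-binding protein of the hnRNP L type, held the most regions, 12, on 2R from 19531841 to 19621973. Their fold enrichments were 1.73 to 3.57 in aly and 1.66 to 2.89 in topi. All 12 had nucleosome positions in aly and in topi, 7 at 48h, 4 at 72h, 4 in bam and 3 in the heat shock control. The reads at these positions in aly, up to 157, were above the median of 15 over all the regions. The whole gene held 70 aly peaks, 56 in topi, 37 at 48h, 35 at 72h, 19 in the heat shock control and 14 in bam. RNA of sm was at 66.1 and 65.7 CPM in bam, 992.2 and 978.0 CPM at 48h, 748.8 and 756.8 CPM at 72h and 1517 and 1506 CPM in aly. It was thus already high in both spermatocyte groups, and higher still in aly, by a log2 fold change of 1.01 ± 0.02 SE against 72h and 0.62 ± 0.02 SE against 48h (adjusted p = 7.3e-24), the latter below 2-fold.

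**Figure D5:**
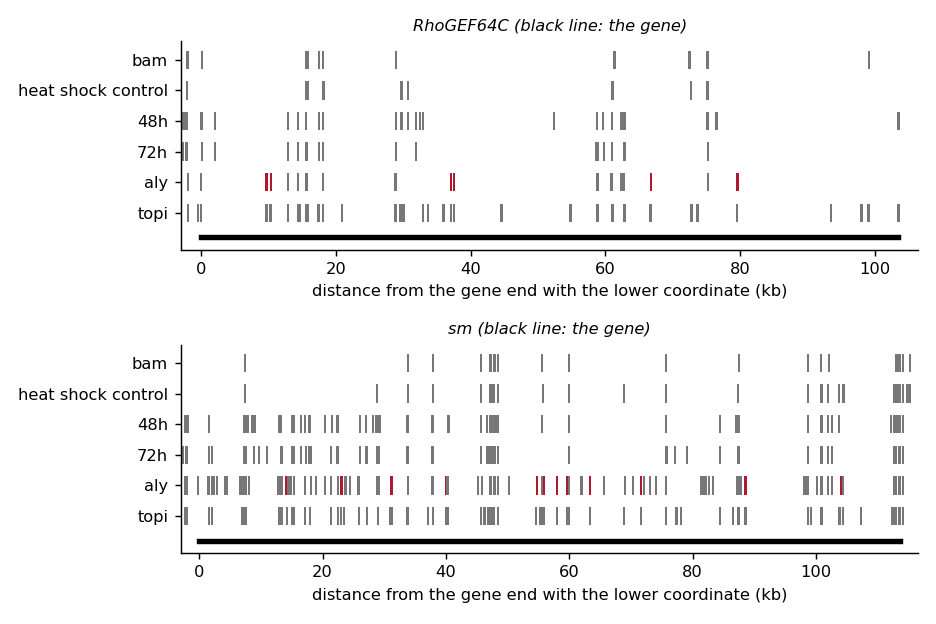
Peaks of each condition along RhoGEF64C and sm, by distance in kb from the gene end with the lower coordinate. Vertical marks are peaks, red marks are the 6 and 12 regions listed only in aly and topi, other marks are grey, and the black line is the gene.

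Besides 5-HT1A and RhoGEF64C, 2 more genes with 3 regions were higher in aly than in all 3 groups. Ptp61F, a tyrosine phosphatase that restrains JAK/STAT signalling, was at 194.9 and 195.9 CPM at 72h, 217.3 and 222.6 CPM at 48h, 220.1 and 222.9 CPM in bam and 459.1 and 470.3 CPM in aly. nAChRalpha1, a subunit of the nicotinic acetylcholine receptor, was at 1.75 and 2.06 CPM at 72h and 4.26 and 3.62 CPM in aly. Against 72h, rises of 2-fold or more were also seen in the RNA-binding protein gene bru3 (5 regions, log2 fold change 1.37), in mgl, a gene of the LDL receptor family (4 regions, 1.62), in CG34353 (4 regions, 2.37), in Sema1a, a guidance protein (4 regions, 1.02), in Tet, a DNA dioxygenase (3 regions, 1.72), and in mam, a coactivator of Notch (3 regions, 1.01). RYa-R, a neuropeptide receptor gene with 3 regions, fell by 3.32 on the log2 scale, from 3.64 and 3.70 CPM to 0.53 and 0.22 CPM. CG13954 and lncRNA:CR44886, with 3 regions each, were called lower at under 1 CPM in every 72h and aly library, and both calls were lost in other settings. The 3 regions of lncRNA:CR44886 lie also in dnc, a cAMP phosphodiesterase gene with a log2 fold change of −0.11 (adjusted p = 0.16). The remaining 11 genes with 3 or more regions, among them heph, a polypyrimidine tract-binding protein gene needed for sperm individualization, with 5 regions and a log2 fold change of 0.28, changed by less than 2-fold.

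The largest falls among linked genes were of genes whose RNA was highest at 72h. Prosalpha4T2, a testis form of a proteasome subunit, was at 48.8 CPM in both 48h libraries, 111.0 and 115.9 CPM at 72h and 0.24 and 0.09 CPM in aly. Its region at 2R 24501693-24501832 had 2.48 in aly and 3.57 in topi and lay 313 bp from a 48h peak. CG42733 was at 139.0 and 147.0 CPM at 72h, with 2707 and 3141 counts, and had 0 and 4 counts in aly. CG43167 was at 65.0 and 66.2 CPM at 72h and had 1 and 4 counts in aly. CG4480, CG2336, CG34287, CG33673 and CR42545 stood between 22.9 and 61.9 CPM in the 72h libraries and had 0 to 2 counts in each aly library. All 8 were lower in bam than at 48h, and at 48h than at 72h. Of their regions, 4 also lie in or next to another gene: SLO2 for CG42733, dpr11 for CG2336, Lamp1 for CR42545 and disp for CG34287.

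The 840 linked genes were 4.72% of the 17807 genes of the annotation, and long genes were linked more often: 2.29% of tested genes below 5000 bp were linked and 28.4% of those of 20000 bp or more. Counts of linked members in lists of cell type markers and functional groups are given beside these shares and were not tested. Of the 37 cell adhesion and axon guidance genes 11 were linked, of the 40 ion channel and neurotransmitter receptor genes 10, of 43 signalling ligands and receptors 6, and of 24 neuron markers 5. No member of the spermatogonia, spermatocyte, spermatid, accessory gland, Polycomb or heat shock lists was linked, but these lists hold 11 to 17 genes each, too few to tell 0 from a share of 4.72%. Among the linked channel genes 4 were higher and 1 lower in aly than at 72h, and in the whole list 10 and 6 of 35 tested. Against 48h the linked channel genes had 5 higher and 1 lower and the whole list 12 and 3, and against bam 5 and 3, with 15 and 10 in the whole list. slo, a calcium-gated potassium channel gene, was at 2.57 and 2.15 CPM at 72h and 5.32 and 5.78 CPM in aly. Shab, a voltage-gated potassium channel gene, was at 2.36 and 1.87 CPM at 72h and 8.58 and 9.18 CPM in aly. Both were higher in aly than in all 3 groups, as was nAChRalpha1, while KCNQ was lower, at a mean of 8.38 CPM at 72h and 2.75 CPM in aly. The 20 tested neuron markers summed to 243.0 and 243.6 CPM in aly, 238.7 and 240.9 CPM at 72h, 249.1 and 251.9 CPM at 48h and 445.7 and 443.4 CPM in bam. Of these 20 markers, 6 were higher and 5 lower in aly than at 72h.

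Among the linked guidance genes, 4 were higher and 1 lower in aly than at 72h, and in the whole list 8 and 4 of 35. Sema2a, a secreted guidance cue named here for its size, was at a mean of 17.03 ± 0.27 CPM at 72h (SD, n = 2), 16.0 ± 0.44 CPM at 48h, 83.5 ± 1.1 CPM in bam and 206.8 ± 2.63 CPM in aly. robo3, a receptor for the guidance cue Slit, fell from 1.03 and 1.404 CPM at 72h to 0.14 and 0.26 CPM in aly. Against 48h, 2 of the 11 were higher and 2 lower, and in the whole list 6 and 3. Against bam, 1 of the 11 was higher and 4 lower, and in the whole list 5 and 17. Among the 5 tested linked signalling genes, 2 were higher and 0 lower in aly than at 72h, and in the whole list 12 and 3 of 38. Against bam, 1 of the 5 was higher and 1 lower, and in the whole list 4 and 13. Of these, bnl, the FGF ligand of the tracheal system, was at 9.09 and 9.55 CPM at 72h and 40.8 and 38.7 CPM in aly. Its level in bam was 15.3 and 17.2 CPM. Pvf1, a ligand of the PDGF and VEGF family, was at 5.75 and 6.32 CPM at 72h and 17.7 and 16.0 CPM in aly. In bam it was at 18.0 and 17.8 CPM, close to its level in aly. The tracheal markers summed to 31.8 and 34.5 CPM at 72h, 41.3 and 44.0 CPM at 48h, 76.5 and 79.7 CPM in bam and 74.4 and 71.3 CPM in aly, and their part in the result for bnl was not tested.

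Of the homeobox list 3 of 30 genes were linked. Dfd, a Hox gene of the head segments, was at 0 and 0.28 CPM at 72h, 0.10 and 0.16 CPM at 48h, 0 in both bam libraries and 2.252 and 1.68 CPM in aly. lbe fell by 1.97 on the log2 scale against 72h, and Ubx was at 1.23 and 1.08 CPM at 72h and 1.15 and 0.95 CPM in aly. The dREAM genes mip130 and Dp, each with 1 region, were higher in aly than at 72h by log2 differences of 0.99 and 0.91, below 2-fold. The white gene w, an eye pigment transporter used here as a pigment cell marker, was at 18.5 and 19.5 CPM at 72h and 1.39 and 1.42 CPM in aly. It was at 8.46 and 7.08 CPM at 48h and 1.41 and 1.46 CPM in bam, so aly was near bam. Of the 6 genes of its list, 1 was higher and 4 lower in aly than at 72h. The 48h and 72h groups, where w was higher, carried the heat shock Bam construct. The part of this construct in the level of w was not tested. The region of w lies also in kirre.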

How the data were processed

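ATAC-seq (20 libraries) and RNA-seq (8 libraries) of testes were used; 4 CAGE libraries were not, because the deposited CAGE counts carry no cluster positions to set beside the regions. Tools listed in the submitters' processing notes are MACS2 2.1.1, BWA 0.7.10, bedtools 2.25.0, STAR 2.5.1b or 2.5.4b, Trim Galore 0.4.1 and deepTools 2.5.4, on build dm6, with no step named. The deposited peak lists, 1 per condition, hold the fold enrichment ratio at the summit, the −log10 p and q and an integer score for each peak. How the 2 to 6 libraries of a condition were combined and how deeply they were sequenced is not given, so no replicate error can be given for peaks. The aly libraries were 3 replicates and the topi libraries 2, each as 2 technical repeats. The deposited nucleosome maps hold an occupancy fraction and the count of reads behind each position. The deposited RNA-seq values are raw counts per gene without normalization.

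Peaks were compared by overlap of 1 bp or more and placed on the RefSeq Release 6 gene spans. RNA counts were fitted with edgeR 4.0.16 in R 4.3.3 (filterByExpr by group, TMM scaling, quasi-likelihood F test) on all 8 libraries, with Benjamini-Hochberg adjustment over 13495 genes. Levels are CPM, and ± gives an SE for a log2 fold change and an SD for a level. The fit and the overlap step were tested on simulated data. Replicate numbers did not pair the libraries: the correlation of same-numbered deviations was 0.03 to 0.10 and the labels name no shared batch. Alternatives were other scalings, DESeq2 1.42.0, no filter, a replicate block, each library left out, other links between peaks and genes, and stricter peaks.

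The regions, the 17 gene lists and the tests were chosen with earlier results of these data known. The genes named are drawn from several sets. By region, these are genes at the 15 regions with the highest aly fold enrichment and those with 3 or more regions. By RNA, they are the 12 highest by their smallest rise over bam, 48h and 72h. The 8 largest rises and falls against 72h at a mean of 10 CPM or more were added. So were up to 3 linked genes of each list, and bam, aly and topi. Some of these list genes are not described above and stayed within 2-fold in aly against 72h. Their log2 fold changes were 0.625 for Egfr, 0.933 for sls, −0.596 for up, 0.691 for Pxn and 0.655 for verm. For Sh it was −0.183, for GluClalpha −0.913, for Fas2 0.641 and for robo1 0.577. Of the genes at the 15 regions, CG45263, CG42366 and CG42367 are not named above, and no RNA level is given for rdog. Ir56c, qin, KCNQ and Sema2a were named after their values were seen. No genome was used, so no sequences are given.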

Additional observations from a re-analysis of the deposited data

How the results depend on the processing

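The number of regions was 732 when aly and topi peaks had to overlap by 50% of both, 807 with no other peak within 200 bp and 939 counted in topi peaks. It fell to 116 with aly and topi peaks at a −log10 q of 10 or more, so the set rests largely on weak peaks. With all 6 lists held to that value the rule gave 414 peaks. Weaker peaks of the other lists were then dropped, so aly peaks that overlap them were let in. The 414 are thus not a subset of the regions and do not measure how many of them are strong. Linked to those 116 regions were 108 tested genes, of which 29 (26.9%) were higher and 19 (17.6%) lower in aly than at 72h, 23 and 13 than at 48h, 30 and 23 than in bam, and 11 higher than in all 3. With links only within 100 bp of a gene end, where few regions lie, 29 genes were tested and the counts were 10 and 6 against 72h, 8 and 3 against 48h, 11 and 3 against bam, and 5 for all 3. With links only inside gene spans, 570 genes were tested, and 163 (28.6%) were higher and 79 (13.9%) lower than at 72h and 111 (19.5%) and 64 (11.2%) than at 48h. Across scalings, tests, filters and left-out libraries, genes higher in all 3 numbered 76 to 86, of which 73 to 80 were among the 81 reported. With a replicate block they numbered 81, and the calls against 72h were 201 higher and 125 lower, as without it. Leaving out each library in turn gave 199 to 208 genes higher and 122 to 127 lower against 72h, 128 to 153 and 103 to 128 against 48h, and 179 to 193 and 186 to 192 against bam. Without a 48h library, aly replicate 1 or bam replicate 1, the median of all genes in aly against 48h moved to between −0.24 and −0.22, from −0.04. Of the named genes, CG41378 against 72h turned to a log2 fold change of 0.0592 with library size alone, and CG13954 had −0.95 without aly replicate 2; the cause was not tested. For lncRNA:CR44886 the value without aly replicate 2 was −0.49. The planned CAGE comparison and its alternatives were not run. The depth of the ATAC-seq libraries is unknown, and it limits what weak peaks can show.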

Other observations

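Among the 81 linked genes higher in aly than in bam, 48h and 72h, 37 had a mean of 10 CPM or more in aly, and some of these were active in every group. The following were named after their values were seen. asl, which encodes a centriole protein needed for centriole duplication, was at 215.5 and 220.1 CPM at 72h, 242.5 and 240.9 CPM at 48h, 232.4 and 233.1 CPM in bam and 583.6 and 594.7 CPM in aly. Its region lies also next to SecS. Nup133, a nuclear pore gene, was at 178.2 and 176.5 CPM at 72h and 413.5 and 409.4 CPM in aly. Unlike the sensory genes, these were well above 100 CPM in all 8 libraries.

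Others were at low or moderate levels outside aly. Rim, a gene of the presynaptic release site, held 2 regions, at 3R 17877478-17877696 and 17889638-17889787, and was at 8.52 and 8.61 CPM at 72h and 98.2 and 94.9 CPM in aly. pot, with 2 regions on X between 11914838 and 11915658, was at 8.78 and 8.33 CPM at 72h and 128.1 and 127.8 CPM in aly. Cad99C, a cadherin gene, was at 1.75 and 0.94 CPM at 72h and 18.8 and 21.9 CPM in aly. LpR1, a lipophorin receptor gene, was at 7.86 and 8.1 CPM at 72h and 34.1 and 36.2 CPM in aly. The regions linked to these 6 genes had fold enrichments of 1.89 to 2.515 in aly, within the range of the other regions.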
